A study of Mus musculus with 72 samples.

Results

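The 6 genes described here encode metabotropic glutamate receptors, the G protein-coupled receptors of the neurotransmitter glutamate: Grm2, Grm3, Grm4, Grm5, Grm7 and Grm8. They were chosen by name, as 6 of the 53715 gene identifiers counted in every library, and are described across the brain groups of a study of mice without Gnb5, which encodes the divergent G protein subunit β5. The series holds 72 RNA-seq libraries, of which 36 come from brain, taken as 3 regions (cerebral cortex, cerebellum and hippocampus) from 6 Gnb5+/+ and 6 Gnb5-/- mice. The other 36 come from atria and ventricles, where heterozygous mice were also sampled. All mice were males of 18 weeks, bred from heterozygous parents on a C57BL/6J background, and the labels name no treatment of them. The knockout allele lacks exon 3 in the germline, so every cell of a Gnb5-/- mouse carries it. Each region was dissected whole (the hippocampi of both hemispheres together), and each mouse gave all 3 regions, so a group is 6 mice and the regions of one genotype share their mice.

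Metabotropic glutamate receptors act through G proteins rather than through a channel of their own. Group I receptors, here Grm5, couple to Gq and phospholipase C and lie mostly on the postsynaptic side. Group II (Grm2, Grm3) and group III (Grm4, Grm7, Grm8) couple to Gi/o, lower cyclic AMP, and in neurons often sit on nerve terminals where they restrain transmitter release. The protein of Gnb5 forms an obligate pair with the R7 family of RGS proteins, which speed the shut-off of Gi/o proteins, and so lies downstream of receptors of this kind. The genotype comparison asks whether mRNA of these receptors differed where that brake was missing, and the region comparison how the family is distributed.

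All 6 genes are protein coding and lie on 5 chromosomes of GRCm38. Grm2 is compact (chr9:106643095-106656082, minus strand, 13 kb), and it is on the chromosome of Gnb5, 31.3 Mb away. The others are long: Grm3 spans 239.6 kb (chr5:9485541-9725170, minus strand), Grm4 99 kb (chr17:27422387-27521403, minus strand) and Grm5 550.7 kb (chr7:87584168-88134907, plus strand). Both remaining genes are on chromosome 6, Grm7 with 921.6 kb (chr6:110645581-111567230, plus strand) and Grm8 with 860.1 kb (chr6:27275119-28135178, minus strand). Exons of Grm2 and Grm7 overlap annotated antisense genes (Gm28111 and Gm20387), which held at most 2 and 112 counts in a brain library. The strand setting used for counting is not given in the sources used here, so a small contribution of antisense reads to these counts cannot be told apart.

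RefSeq promoter windows (GRCm38.p6), which reach from upstream of the RefSeq start to bases after it, were listed for 4 of the 6 genes. By the gene coordinates above, the windows of Grm3 and Grm7 lie wholly upstream of the gene, and those of Grm2 and Grm8 overlap its start. They are shown as the regulatory sequence nearest to the start of these genes (no window was listed for Grm4 or Grm5), with matches in capitals to GGGCGG (the core of a GC box, which binds Sp1-type factors) and, in Grm2, to TTCAGCACC and GGACAGC, the left and right parts of the RE1 element bound by the neuronal gene repressor REST.
Grm2 (chr9:106656060-106656359, minus strand): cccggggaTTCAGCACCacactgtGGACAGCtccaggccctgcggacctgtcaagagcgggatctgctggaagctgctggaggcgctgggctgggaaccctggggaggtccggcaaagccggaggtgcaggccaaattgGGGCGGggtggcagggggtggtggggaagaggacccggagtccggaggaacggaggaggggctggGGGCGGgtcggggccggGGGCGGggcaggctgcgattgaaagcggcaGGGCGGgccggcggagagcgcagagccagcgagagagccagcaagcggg
Grm3 (chr5:9725303-9725602, minus strand): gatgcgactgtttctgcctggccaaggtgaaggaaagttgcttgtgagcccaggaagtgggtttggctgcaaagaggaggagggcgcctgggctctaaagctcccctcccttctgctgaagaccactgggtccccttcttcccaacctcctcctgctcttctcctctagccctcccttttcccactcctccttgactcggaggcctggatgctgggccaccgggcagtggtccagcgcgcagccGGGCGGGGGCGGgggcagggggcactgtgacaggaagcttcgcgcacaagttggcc
Grm7 (chr6:110645262-110645561, plus strand, the first of 2 listed): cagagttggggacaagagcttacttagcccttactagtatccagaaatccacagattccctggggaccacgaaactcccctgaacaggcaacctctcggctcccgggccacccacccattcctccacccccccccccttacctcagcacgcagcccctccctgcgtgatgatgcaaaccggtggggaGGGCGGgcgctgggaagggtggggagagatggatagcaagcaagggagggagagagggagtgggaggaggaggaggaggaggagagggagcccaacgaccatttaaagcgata
Grm8 (chr6:28135097-28135396, minus strand, the first of 3 listed): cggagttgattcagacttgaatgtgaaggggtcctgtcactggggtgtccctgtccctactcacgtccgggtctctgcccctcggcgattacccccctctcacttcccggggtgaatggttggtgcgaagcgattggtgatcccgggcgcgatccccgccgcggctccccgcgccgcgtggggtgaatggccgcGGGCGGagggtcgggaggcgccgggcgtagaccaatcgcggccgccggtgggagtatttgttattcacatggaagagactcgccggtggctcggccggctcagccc

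The Grm2 window was the richest in G and C of the 4, at 72%, against 63.7% in Grm3, 61% in Grm7 and 67% in Grm8. GGGCGG was found 4 times in Grm2, 2 times in Grm3 and 1 time each in Grm7 and Grm8. Searched on both strands, these letters occur in 35.7% of the 32851 promoters of the same length, so their presence is common. TATAAA, the TATA box, was in none of the 4 and in 13.6% of all promoters. The left part of the RE1 element was in 0.371% of promoters and the right part in 6.56%. In Grm2 both lie on the same strand with 7 bases between them, an arrangement that 2 of the 32851 promoters hold. These motifs and the spacing of 7 bases were chosen after the Grm2 sequence had been read. Other spacings were not counted, so the count of 2 does not measure how rare the paired parts are. A match of letters is a description of sequence, not a measured binding site.

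The genotype labels were first checked on Gnb5 itself. Its normalised count, in TMM-normalised counts per 1000000 counts of a library (CPM), was 144 ± 8.24 (SD, n = 6) in Gnb5+/+ and 20.1 ± 1.19 in Gnb5-/- cerebellum. The values were 102 ± 4.55 against 13.2 ± 0.84 in hippocampus and 135 ± 9.09 against 15.9 ± 2.08 in cortex, and the genotypes did not overlap in any region. These counts cover the whole gene and not only the deleted exon. Brain libraries held 29204390 to 48807435 counts on genes (median 42339164), and fixed marker lists of cerebellum, hippocampus and cortex were highest in the region of their label. In 3 of the 36 libraries the profile stood apart from its group. The cerebellum of Gnb5-/- mouse 12 had a median correlation with its group of 0.938, the cortex of Gnb5-/- mouse 14 had 0.912 and the cortex of Gnb5-/- mouse 3 had 0.972, whereas the other libraries had at least 0.986. In the cerebellum of mouse 12 the 5 choroid plexus markers summed to 889 CPM (12.9 to 20.2 in the others of its group) and the 5 oligodendrocyte markers to 4898 (2311 to 3270). The 5 markers of the cerebellum list summed to 5342 (3654 to 3939). Lower than in the others were the 4 granule cell markers at 2883 (3659 to 4172), the 5 astrocyte markers at 1736 (2268 to 2499) and the 3 oligodendrocyte precursor markers at 30.8 (44.6 to 56.9). In the cortex of mouse 14 the 5 astrocyte markers summed to 925 CPM (1261 to 1443 in the others) and the 5 thalamus markers to 67.9 (82.6 to 131). Higher than in the others were the 5 markers of the cerebellum list at 519 (161 to 287), the 5 of the cortex list at 671 (509 to 599) and the 5 striatum markers at 390 (249 to 320). The 3 genes listed for cerebellar Golgi cells, among them the somatostatin gene Sst, summed to 920 (228 to 315). In Gnb5+/+ mice this list was higher in cortex (242 to 293) than in cerebellum (161 to 192), so here it does not mark Golgi cells. Reads assigned to no annotated feature were 8.02% in the cerebellum of mouse 12, against 14 to 16.6% in the others of its group. They were 6.86% in the cortex of mouse 14 and 8.32% in that of mouse 3, against 13.45 to 14.9% in the other Gnb5-/- cortices. Further marker lists also lay outside the range of the others in the cerebellum of mouse 12 and the cortex of mouse 14. No marker of the lists was at 0 in a whole group. The part of these values in the results was not tested. The genotype and region differences below are also given without these libraries. In bulk tissue, fewer cells of a type and less RNA per cell cannot be told apart.

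Grm4 dominated the family in the cerebellum. It encodes a presynaptic group III receptor known from the terminals of cerebellar granule cells. In Gnb5+/+ cerebellum its level was 525 CPM in the lowest of 6 mice, 557 in the median and 638 in the highest. In Gnb5+/+ hippocampus it was 10.1, 12.2 and 15.5 CPM, and in cortex 28.3, 31.3 and 38.3 CPM. The 3 regions did not overlap. Grm4 was 44.3-fold higher in cerebellum than in hippocampus (95% interval 39.1 to 50.3) and 17.6-fold higher than in cortex (15.7 to 19.8). The granule cell markers had the same order of regions except between hippocampus and cortex, with sums of 3897 to 4427 CPM in Gnb5+/+ cerebellum, 20.3 to 22.7 in hippocampus and 11.5 to 12.9 in cortex.

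Grm5 showed the opposite distribution. It encodes the group I receptor whose postsynaptic scaffold is built by Homer proteins. Its levels in Gnb5+/+ mice were 314, 335 and 357 CPM (lowest, median, highest) in hippocampus, 208, 220 and 244 in cortex, and 6.23, 7.40 and 8.73 in cerebellum. Each region again had its own range. The cerebellum held 0.0328 of the cortical level (95% interval 0.0299 to 0.0359) and 0.0217 of the hippocampal level (0.0198 to 0.0238), and the hippocampus had 1.51-fold the cortical level (1.40 to 1.62).

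**Figure D1:**
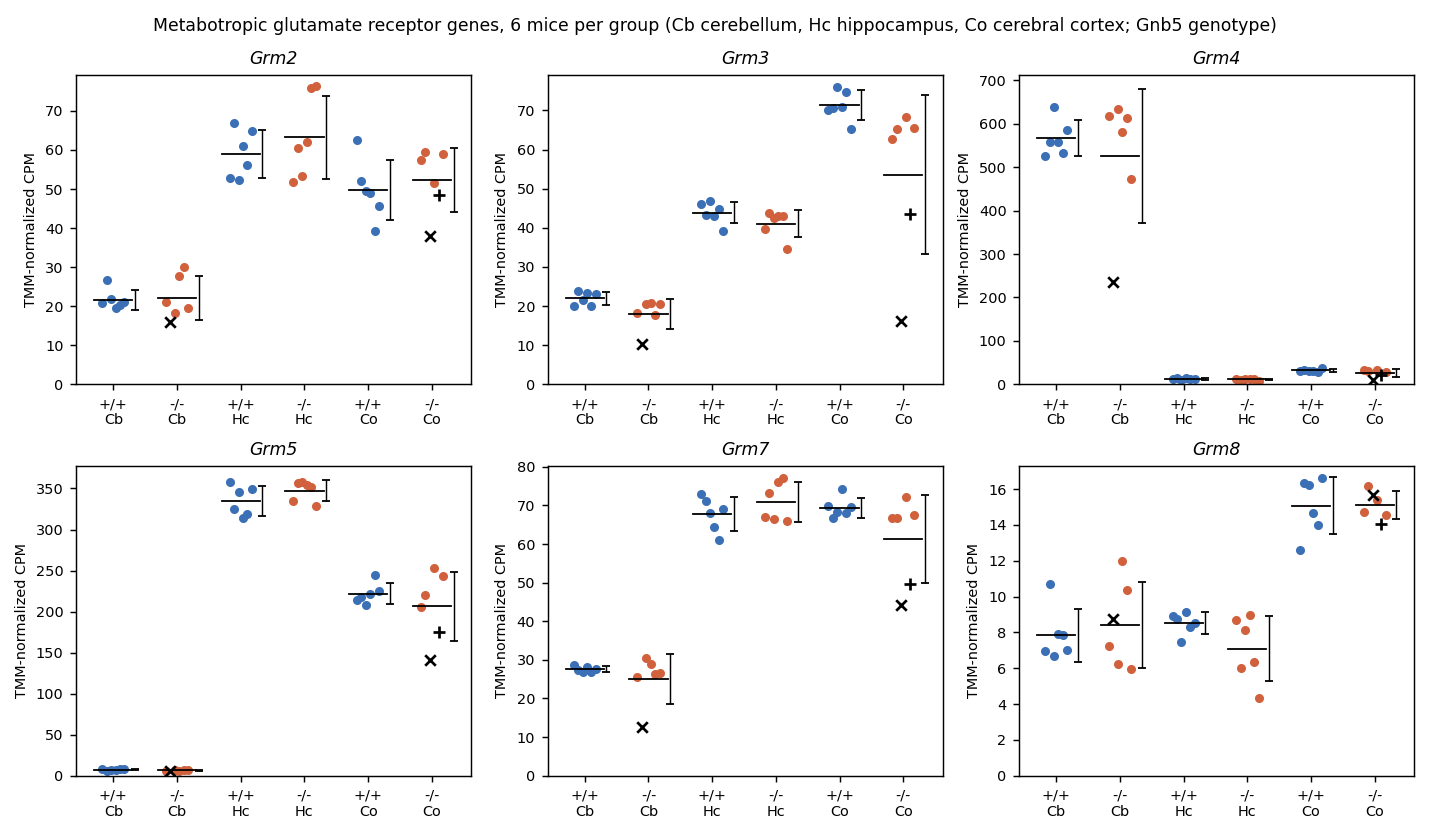
TMM-normalised CPM (linear axis from 0) of the 6 receptor genes in each of 36 brain libraries, 6 mice per group, with the mean as a horizontal line and the SD as a bar beside it. Crosses mark the libraries of Gnb5-/- mouse 12 in cerebellum and mouse 14 in cortex and the plus sign that of mouse 3 in cortex. Grm4 was high in cerebellum alone and Grm5 in hippocampus and cortex, and the crosses are the lowest Gnb5-/- points for all of these genes but Grm8 in both regions.

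The group II genes were both lowest in cerebellum but peaked in different places. Grm3, a receptor of neurons and astrocytes that also responds to the peptide NAAG, rose from 19.9, 22.2 and 23.8 CPM (lowest, median, highest) in Gnb5+/+ cerebellum through 39.3, 44 and 46.8 in hippocampus to 65.2, 70.8 and 75.9 in cortex, without overlap. Grm2, which encodes a presynaptic receptor at glutamatergic terminals, had 19.5, 21 and 26.7 CPM in cerebellum, 52.3, 58.5 and 67.0 in hippocampus and 39.2, 49.3 and 62.6 in cortex. The hippocampal and cortical ranges of Grm2 overlapped, and its 1.19-fold higher level in hippocampus (95% interval 1.06 to 1.34, edgeR adjusted p = 0.0134) lost the call without Gnb5+/+ mouse replicate 5 (adjusted p = 0.0582) or replicate 6 (0.0665).

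Among the other group III genes, Grm7 encodes a receptor of presynaptic active zones with low affinity for glutamate. In Gnb5+/+ mice its cerebellar values were 26.8, 27.5 and 28.8 CPM, those of hippocampus 61.0, 68.6 and 72.9, and those of cortex 66.7, 68.9 and 74.3. Its hippocampal and cortical ranges overlapped, and the ratio of the 2 regions was 0.974 (95% interval 0.923 to 1.03, edgeR adjusted p = 0.399). Grm8, another presynaptic receptor, was the lowest of these 6 genes per exon length in hippocampus and cortex. It had 12.6, 15.4 and 16.6 CPM in cortex, above all libraries of cerebellum (6.70, 7.41 and 10.7) and of hippocampus (7.48, 8.64 and 9.15). Those ranges overlapped each other, and the ratio of cerebellum to hippocampus was 0.913 (0.80 to 1.04, edgeR adjusted p = 0.184), which passed the threshold without Gnb5+/+ replicate 2 (log2 fold change -0.22, adjusted p = 0.0285).

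Regional differences were common among all genes, so the counts of calls say little about this family. With the mouse as a block, edgeR's quasi-likelihood test called 81.2% of 18577 genes between Gnb5+/+ cerebellum and cortex at a Benjamini-Hochberg adjusted p below 0.05, and all 6 receptor genes were among them, 1 higher in cerebellum (39.2% of all genes) and 5 lower (42%). Between cerebellum and hippocampus 80.8% of genes and 5 of 6 receptor genes were called, and between hippocampus and cortex 55.9% and 5 of 6. The regions did not overlap for 6, 5 and 4 of the 6 genes in these comparisons, and for 60.5%, 59.6% and 27.9% of all genes. The sizes tell more. Between cerebellum and cortex the log2 fold change was 4.14 (SE 0.08) for Grm4 and -4.93 (SE 0.06) for Grm5, and 4.86% and 3.36% of genes had a larger difference in either direction. Between cerebellum and hippocampus the values were 5.47 (SE 0.09) and -5.53 (SE 0.06), exceeded by 2.51% and 2.44% of genes. The remaining cerebellum-to-cortex differences were -1.70 for Grm3, -1.33 for Grm7, -1.20 for Grm2 and -0.95 for Grm8, and 17.2 to 31.7% of genes had larger ones. In an exact paired permutation test over the 6 mice, all 6 genes reached two-sided p = 0.0312 between cerebellum and cortex, the smallest p that 6 pairs allow. The median log2 fold change of the 6 genes was -1.26 in that comparison, beside -0.02 over all genes tested.

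The same tests in Gnb5-/- mice gave the same pattern for the genes that differed most. Grm4 was 19.8-fold higher in cerebellum than in cortex (95% interval 12.5 to 31.4) and Grm5 was at 0.0309 of the cortical level (0.0244 to 0.0391). Without mice 12 and 14 the intervals were 15.1- to 25-fold for Grm4 (log2 fold change 4.28) and 0.0243 to 0.0358 of the cortical level for Grm5 (-5.08). All 6 genes were called between cerebellum and cortex (52.4% of 18457 genes), 5 of 6 between cerebellum and hippocampus (52.5%), and 3 of 6 between hippocampus and cortex (19.1%). Without mice 12 and 14 the counts were 6, 5 and 4 of 6, beside 64.5%, 62.9% and 25.6% of 18533 genes. Grm3 between hippocampus and cortex had a log2 fold change of -0.33 (adjusted p = 0.434, SE 0.28) in Gnb5-/- mice and -0.70 (SE 0.05) in Gnb5+/+ mice. The knockout value was -0.57 (adjusted p = 0.00705, SE 0.12) without mice 12 and 14, and -0.57 (adjusted p = 0.0435) without mouse 14 alone. Whether the genotypes differed in these distributions is tested further on.

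**Figure D2:**
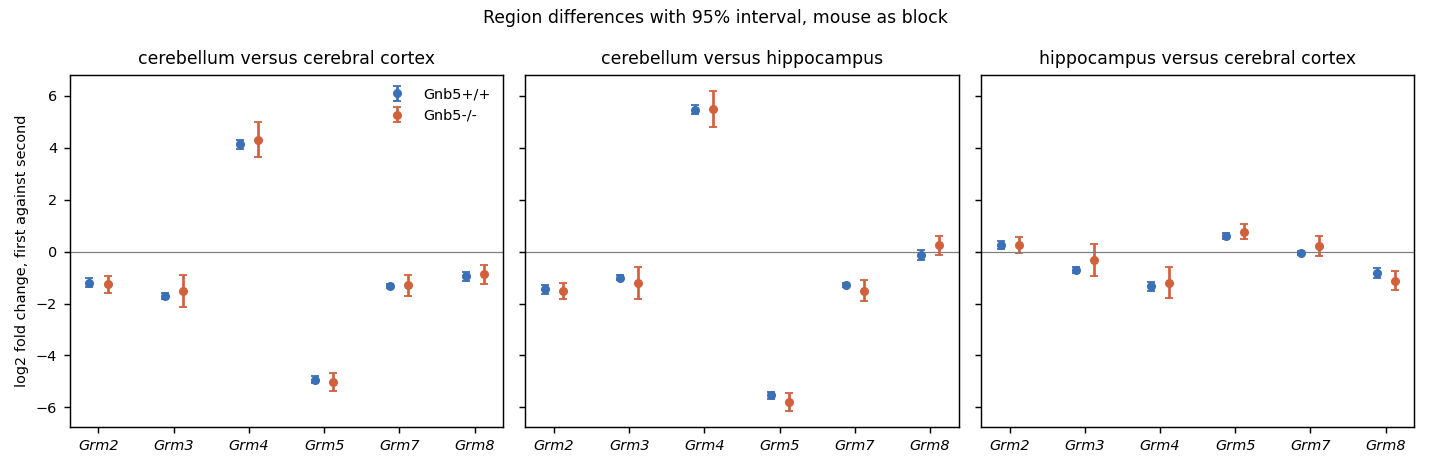
Log2 fold change between brain regions for each receptor gene with its 95% interval, in Gnb5+/+ (blue) and Gnb5-/- mice (orange), 6 mice each with the mouse as block; the zero line marks equal levels. Grm4 and Grm5 lie farthest from 0 and on opposite sides in both comparisons with cerebellum, and the intervals of Gnb5-/- mice are wider.

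Genes were ranked against each other only after division by exon length (CPM per kb of the union of annotated exons). In Gnb5+/+ cerebellum the order was Grm4 (94.7 ± 6.91, SD), Grm3 (7.20 ± 0.57), Grm7 (4.69 ± 0.13), Grm2 (4.43 ± 0.53), Grm8 (0.79 ± 0.15) and Grm5 (0.71 ± 0.09). The ranges of Grm7 and Grm2 overlapped, as did those of Grm8 and Grm5. In Gnb5+/+ hippocampus it was Grm5 (32.7 ± 1.75), Grm3 (14.4 ± 0.89), Grm2 (12 ± 1.27), Grm7 (11.5 ± 0.74), Grm4 (2.14 ± 0.36) and Grm8 (0.86 ± 0.06), where Grm3 overlapped Grm2 and Grm2 overlapped Grm7. In Gnb5+/+ cortex Grm3 (23.4 ± 1.25) and Grm5 (21.7 ± 1.23) led with overlapping ranges, Grm3 above Grm5 in 5 of 6 mice. Grm7 (11.8 ± 0.44) and Grm2 (10.2 ± 1.58) followed, also overlapping, before Grm4 (5.39 ± 0.59) and Grm8 (1.52 ± 0.16).

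As a share of the summed per-length level of the 6 genes, Grm4 made up 84.1% ± 1.13 (SD, n = 6) in Gnb5+/+ cerebellum and 83.9% ± 2.68 in Gnb5-/- cerebellum. Grm5 made up 44.4% ± 1.58 in Gnb5+/+ and 45.2% ± 1.51 in Gnb5-/- hippocampus. The cortex was more even, with Grm3 at 31.6% ± 1.58 and Grm5 at 29.3% ± 1.72 in Gnb5+/+ mice, against 26.0% ± 5.97 and 31.5% ± 2.85 in Gnb5-/- mice. Without the cortex of mouse 14 these were 28.4% ± 1.30 and 30.5% ± 1.63 (n = 5), without mice 14 and 3 they were 29.0% ± 0.27 and 30.3% ± 1.8 (n = 4), and Grm4 in Gnb5-/- cerebellum was 84.8% ± 1.71 (n = 5) without mouse 12. The Gi/o-coupled genes therefore held most of the summed level in all 3 regions.

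**Figure D3:**
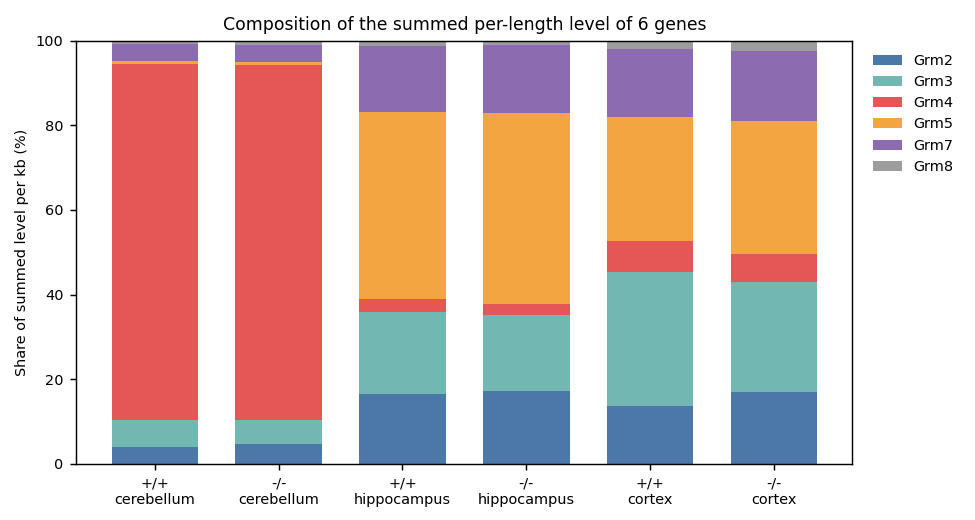
Mean share (%) of each receptor gene in the summed CPM per kb of the 6 genes, stacked to 100 for each of 6 groups of 6 mice. Grm4 fills 84.1% of the Gnb5+/+ cerebellum bar, while Grm5, Grm3, Grm2 and Grm7 fill most of the hippocampal and cortical bars.

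The genotype comparison within each region found no receptor gene called. In cerebellum 14 of 17139 genes (0.0817%) passed the edgeR threshold, in hippocampus 29 of 17588 (0.165%) and in cortex 10 of 17967 (0.0557%). Of the 6 receptor genes 0 passed in each region, 0 had an unadjusted p below 0.05 (5.85%, 7.7% and 7.39% of all genes), and 0 passed in DESeq2. The genotypes overlapped for all 6 in each region, while 1.13%, 0.677% and 0.573% of all genes had no overlap. With so few calls among all genes, a count of 0 in 6 does not set the family apart. The size of the differences that the data allow is given by the intervals. In hippocampus, where no library stood apart, the ratio of Gnb5-/- to Gnb5+/+ lay between 0.974 and 1.09 for Grm5, 0.964 and 1.13 for Grm7, 0.854 and 1.02 for Grm3, 0.921 and 1.24 for Grm2, 0.75 and 1.06 for Grm4, and 0.667 and 1.03 for Grm8. The summed choroid plexus markers varied in hippocampus, from 33.7 to 1574 CPM in Gnb5+/+ and from 35.1 to 291 in Gnb5-/- mice, and their part in these ratios was not tested. In cerebellum the ratio of Grm4 lay between 0.694 and 1.24 and that of Grm8 between 0.812 and 1.42, and in cortex the ratio of Grm3 lay between 0.505 and 1.12. Without the library of mouse 12 or mouse 14 these intervals were 0.929 to 1.15, 0.813 to 1.40 and 0.735 to 0.997.

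Grm3 was the receptor gene with the lowest ratio in cerebellum and cortex. In Gnb5-/- mice its lowest, median and highest values were 10.4, 19.3 and 20.7 CPM in cerebellum, 34.7, 42.8 and 43.7 in hippocampus and 16.2, 63.9 and 68.2 in cortex. In each region 0 of 6 Gnb5-/- libraries lay above the Gnb5+/+ mean (21.9, 43.9 and 71.3 CPM), but the ranges of the genotypes overlapped in all 3. The log2 fold change was -0.29 (edgeR adjusted p = 0.583, SE 0.15) in cerebellum, -0.10 (adjusted p = 0.725, SE 0.06) in hippocampus and -0.41 (adjusted p = 0.476, SE 0.26) in cortex. These regions come from the same mice and are not independent repeats. Two-sided exact permutation tests of log2 CPM gave p = 0.0238, 0.175 and 0.00649, the lowest of the 18 such tests for 6 genes in 3 regions being the last. Without the cerebellum of mouse 12 the difference was -0.17 (SE 0.07, unadjusted p = 0.0255, adjusted p = 0.362, edgeR). Without the cortex of mouse 14 it was -0.22 (SE 0.10, unadjusted p = 0.0459, adjusted p = 0.775), and without the cortices of mice 14 and 3 it was -0.12 (SE 0.05, unadjusted p = 0.024, adjusted p = 0.979). The direction stayed and the size shrank, and no call was reached.

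For Grm4 and Grm7 the cerebellar differences rested on 1 library. Grm4 in Gnb5-/- cerebellum had 235 CPM in mouse 12 and a median of 597, near the Gnb5+/+ median of 557. The log2 fold change was -0.11 (adjusted p = 0.787, SE 0.19), and 0.05 (adjusted p = 0.827, SE 0.07) without mouse 12. Grm7 had 12.6 CPM in mouse 12 against a highest value of 30.5, with -0.14 (adjusted p = 0.693, SE 0.17) over all mice and 0.00042 (adjusted p = 0.999, SE 0.05) without it. In the same library the granule cell markers were lower, and the cerebellum list higher, than in any other Gnb5-/- cerebellum, as given above.

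In cortex the pattern was similar. Grm4 ranged from 10.9 to 34 CPM in Gnb5-/- and from 28.3 to 38.3 in Gnb5+/+ mice, with a log2 fold change of -0.28 (adjusted p = 0.513, SE 0.23) that was -0.12 without mouse 14 and -0.02 without mice 14 and 3. Grm7 ranged from 44.3 to 72.3 CPM against 66.7 to 74.3, with -0.18 (adjusted p = 0.478, SE 0.12) and -0.02 without mice 14 and 3. Grm5 ranged from 141 to 253 CPM against 208 to 244, with -0.11 (adjusted p = 0.63, SE 0.13) and 0.06 without these mice.

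Grm2 and Grm8 showed small differences of either sign. Grm2 differed by 0.03 (SE 0.15) in cerebellum, 0.10 (SE 0.10) in hippocampus and 0.07 (SE 0.13) in cortex on the log2 scale, with edgeR adjusted p-values of 0.935, 0.861 and 0.742. Without mouse 12 the cerebellar value was 0.11 (SE 0.12, adjusted p = 0.77). In cortex it was 0.15 (SE 0.11, adjusted p = 0.775) without mouse 14, and 0.20 (SE 0.10, unadjusted p = 0.0691, adjusted p = 0.979) without mice 14 and 3. Grm8 differed by 0.10 (SE 0.19), -0.27 (SE 0.15) and -0.00039 (SE 0.088), with adjusted p-values of 0.792, 0.693 and 0.998, and it was at 0.09 in cerebellum without mouse 12 and at -0.01 in cortex without mouse 14. In hippocampus Grm8 lay between 4.34 and 8.99 CPM in Gnb5-/- and between 7.48 and 9.15 in Gnb5+/+ mice, with 2 of 6 knockout libraries above the Gnb5+/+ mean. Grm5 in cerebellum, at 5.13 to 7.39 CPM against 6.23 to 8.73, had -0.21 (adjusted p = 0.583, SE 0.12), and -0.15 (adjusted p = 0.586, SE 0.10) without mouse 12.

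**Figure D4:**
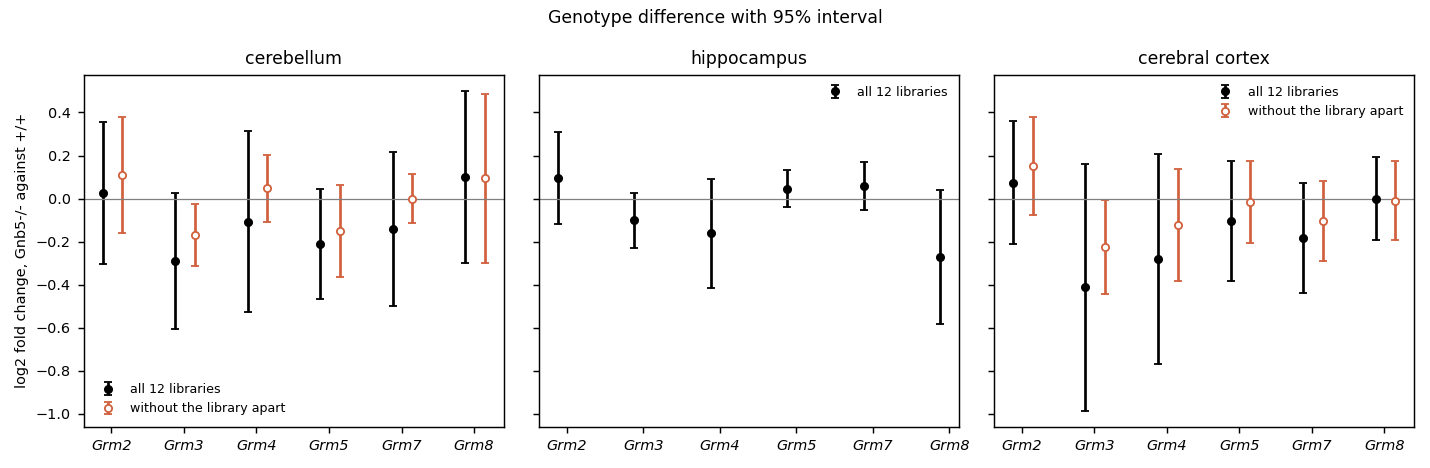
Log2 fold change of Gnb5-/- against Gnb5+/+ with its 95% interval for each receptor gene in 3 regions, over all 12 libraries (black) and without the library of mouse 12 in cerebellum or mouse 14 in cortex (open circles). All black intervals include 0. In cerebellum and cortex the values of Grm3, Grm4 and Grm7 lie nearer to 0 without the library that stood apart, and the narrower open-circle intervals of Grm3 no longer include 0 (-0.31 to -0.02 in cerebellum and -0.44 to -0.0047 in cortex), although its adjusted p-values were 0.362 and 0.775 (edgeR).

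Whether the genotype difference itself varied by region was tested as an interaction over all 36 libraries with the mouse as block. Between cerebellum and cortex 0 of 6 receptor genes were called (2 of 19388 genes, 0.0103%), between cerebellum and hippocampus 0 of 6 (5 genes, 0.0258%), and between hippocampus and cortex 0 of 6, where no gene was called (0 of 19388 genes by edgeR or by DESeq2, 857 at an unadjusted p below 0.05). The largest value was that of Grm8 between cerebellum and hippocampus, 0.38 on the log2 scale (SE 0.20, unadjusted p = 0.0655, adjusted p = 0.884, edgeR), and 0.45 (SE 0.20, unadjusted p = 0.0342, adjusted p = 0.893) without mice 12 and 14. Without these mice Grm7 between hippocampus and cortex was at 0.20 (SE 0.10, unadjusted p = 0.0488, adjusted p = 0.531, edgeR). For Grm3 between hippocampus and cortex the interaction was 0.37 (adjusted p = 0.641, SE 0.29), and 0.13 (adjusted p = 0.684, SE 0.12) without mice 12 and 14. The different region calls of Grm3 in both genotypes were thus not matched by a difference between genotypes that passed the test.

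The genes around the receptors were then examined, since Grm2 shares its chromosome with Gnb5. Within 1 Mb of Grm2, 4 of 48 tested genes (8.33%) were called between genotypes in cerebellum, 6 of 52 (11.5%) in hippocampus and 3 of 51 (5.88%) in cortex, against the shares of all genes given above. Without mouse 12 it was 9 of 50 (18%) in cerebellum, beside 0.359% of all genes. In cortex it was 6 of 52 (11.5%) without mouse 14, beside 0.121%, and 7 of 52 (13.5%) without mice 14 and 3, beside 0.142%. Each of the other 5 receptor genes had fewer tested neighbours than Grm2: 8 around Grm3, 34 to 37 around Grm4, 3 to 5 each around Grm5 and Grm7, and 11 around Grm8. Of these 0 were called in any region, which at the shares of all genes says little. Over all libraries the 13 calls near Grm2 fell on 7 genes, 5 lower and 2 higher in Gnb5-/- mice. Rpl29, which encodes a protein of the large ribosomal subunit and lies 211.5 kb from Grm2, had a log2 fold change of -2.56 (SE 0.21) in cerebellum, -2.57 (SE 0.13) in hippocampus and -2.71 (SE 0.16) in cortex. Ribosomal protein genes have many processed copies in the genome, so how its reads were assigned is uncertain. Poc1a, a centriole protein gene 292.6 kb away, had -0.98, -0.99 and -1.09. Ppm1m, a protein phosphatase gene 443.3 kb away, was called in hippocampus (-0.77) and cortex (-1.15), and Abhd14a (195.4 kb) in hippocampus alone (-0.40). Gm28959, an antisense transcript, was called in hippocampus at 0.373 CPM in Gnb5+/+ mice, and the higher genes were Gm38150 (log2 fold change 1.82 in cerebellum and 1.87 in hippocampus) and Col6a6 (1.40 in cerebellum). Grm2, in the middle of this window, differed by at most 0.10 in any region over all libraries, and by 0.11 in cerebellum and 0.15 to 0.20 in cortex without the libraries that stood apart, with no call. What the called genes near Grm2 share besides position was not tested.

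**Figure D5:**
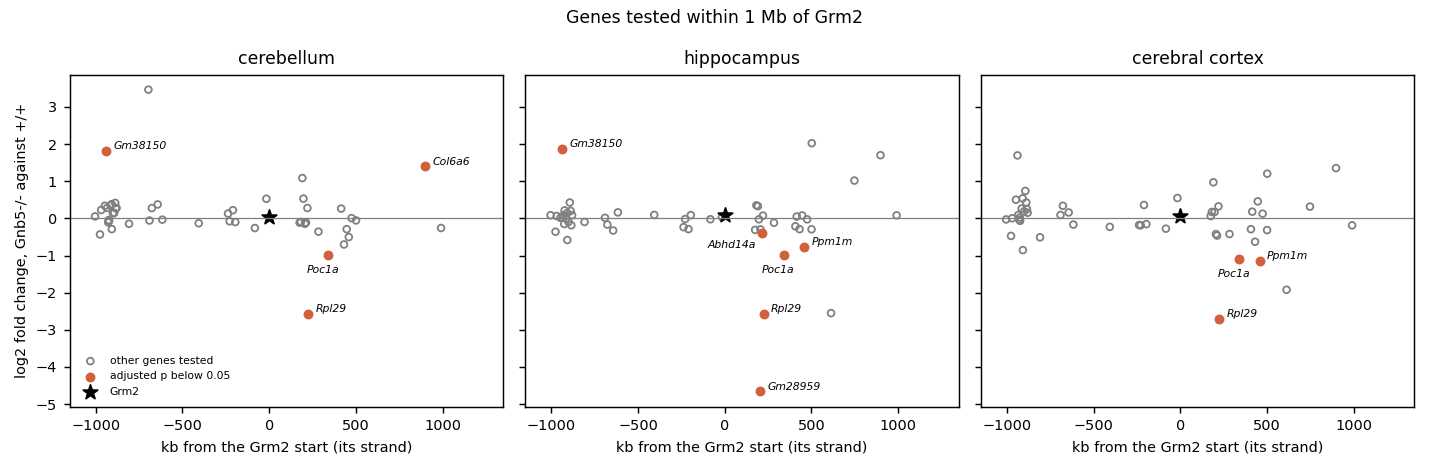
Log2 fold change of Gnb5-/- against Gnb5+/+ for genes tested within 1 Mb of Grm2, plotted against the distance in kb of their midpoint from the start of Grm2 along its strand, in 3 regions (6 mice per genotype). Filled points passed an adjusted p of 0.05 and the star is Grm2, which lies at 0.03 to 0.10 while Rpl29 lies at -2.71 to -2.56.

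Genes that act with these receptors were taken from fixed lists. In the Gq list, which holds Gq subunits, phospholipase C β enzymes, the IP3 receptor, protein kinase C and TRPC channels, 0 of 11 genes were called between genotypes in each region, with median log2 fold changes of -0.12, -0.04 and -0.18 in cerebellum, hippocampus and cortex. In the Gi/o list of G protein subunits, adenylyl cyclases and GIRK channels it was 0 of 12, with medians of 0.02, -0.0039 and -0.09. The R7-RGS list (RGS proteins, their anchors and Gpr158 and Gpr179) had 0 of 7, 0 of 8 and 0 of 8 tested genes called, with medians of -0.11, 0.04 and -0.16. The Homer, Shank and other scaffold genes had 0 of 11 called in each region, with medians of -0.13, 0.0025 and -0.30, and the genes of glutamate and NAAG transport and metabolism 0 of 13, with medians of -0.08, 0.04 and -0.0055. The medians of all genes tested were 0.00041, 0.00019 and 0.00588. The median of the scaffold genes was 0.07 in cerebellum without mouse 12, and in cortex it was -0.18 without mouse 14 and -0.05 without mice 14 and 3. The Gq median was 0.0031, -0.10 and -0.01 and the R7-RGS median -0.09, -0.06 and 0.01 under these settings. In them 1 list gene was called in 1 region, Gpr158, which encodes a receptor that binds R7-RGS complexes. Its level was 281, 312 and 338 CPM (lowest, median, highest) in Gnb5+/+ and 149, 257 and 274 in Gnb5-/- cerebellum, so the genotypes did not overlap. Its log2 fold change was -0.35 (adjusted p = 0.583, SE 0.13) over all 12 libraries and -0.24 (adjusted p = 0.0484, SE 0.05) without mouse 12 (edgeR), a setting chosen after seeing the data for these lists. By DESeq2, 1 of these genes was called in 1 region, Gnai2 in cerebellum (log2 fold change 0.23, adjusted p = 0.0213 in DESeq2 and 0.583 in edgeR), named here after its value was seen. Grm6, a group III gene known from the retina, was too low to be tested in the genotype comparisons.

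Across the 36 brain libraries the members moved with the regions. Pearson's r of log2 CPM was -0.97 between Grm4 and Grm5, -0.91 between Grm4 and Grm2, 0.96 between Grm5 and Grm7 and 0.95 between Grm5 and Grm2. Grm8 had at most 0.52, with Grm3, which was 0.66 over the 34 libraries without the cerebellum of mouse 12 and the cortex of mouse 14. These libraries share region and mouse, so the values are descriptions. After the group means were removed, Grm3 and Grm4 had r = 0.82, Grm4 and Grm7 had 0.82 and Grm3 and Grm7 had 0.75, but these were 0.34, 0.49 and 0.68 over the same 34 libraries. The protein-coding genes most like each member by r over 36 libraries were Rcan3 (0.996), Epb41 and Gria4 for Grm4, and Neto1 (0.998), Pde1a and D430019H16Rik for Grm5. For Grm2 they were Src (0.97), Ncs1 and Agap2, for Grm3 Rps6ka2 (0.98), Pcdh15 and Mboat7, for Grm7 Lclat1 (0.993), Astn1 and Kalrn, and for Grm8 Fhod3 (0.909), Zc2hc1c and Bmp7. Grm8 thus had the least similar nearest genes of the family.

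In the heart libraries of the same series the 6 genes were at or near 0. Grm2 and Grm5 had 0 counts in all 18 ventricular libraries, and the highest level of any member was 1.29 CPM, of Grm7 in ventricles. Grm7 had at least 2 counts in every heart library, with medians of 0.202 CPM in atria and 0.619 in ventricles. Grm4 had 3 to 36 counts in each atrial library (median 0.611 CPM) and 0 to 6 in ventricles. No genotype test was made at these levels.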

How the data were processed

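RNA of 36 brain and 36 heart libraries was sequenced by the authors as stranded total RNA with ribosomal RNA removed. Per the methods and processing notes, they trimmed reads with Cutadapt 1.8, filtered ribosomal and low-complexity reads, aligned them with STAR 2.5.3a to GRCm38 (Ensembl release 92) and counted reads per gene with htseq-count 0.9.1. The deposited values are these raw counts, 1 whole number per gene and library. Rows that are not genes were left out, and the one for reads assigned to no annotated feature held 6.86 to 17% of brain totals. Symbols and coordinates came from GENCODE M21 (53620 of 53715 identifiers matched).

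Counts were tested with edgeR 4.0.16 (R 4.3.3): TMM normalisation, filterByExpr with a count minimum of 10, and the quasi-likelihood test with Benjamini-Hochberg adjustment over all genes tested. Genotypes were compared within each region on its 12 libraries, regions within a genotype with the mouse as block, and the interaction over 36 libraries. Regions of a mouse pair by the mouse numbers in the labels, and 32 of 36 same-mouse pairs had deviations correlated above 0.1 (r from -0.575 to 0.554). Single values had two-sided exact permutation tests, over the 924 divisions of 12 mice or over sign changes of 6 pairs. Log2 CPM used a prior count of 2. In simulated data with 200 genes changed 2-fold, far more than the genotype differences of the receptor genes, 199 to 200 were recovered in the genotype fits (10 to 18 false calls), 200 in the region fit of cerebellum against cortex (6) and 189 in the interaction of those regions (10). The simulation used the same dispersion for every gene, with no effect of mouse and no library that stood apart. It changed only genes above a minimum mean count. These recoveries therefore do not give the power of the fits to the real libraries. Of 90 within-group pairs of libraries 0 were identical.

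Named genes were all 6 members, list genes called between genotypes, the 3 protein-coding genes most correlated with each member, called genes within 1 Mb of a member, and Gnb5. The members, lists and tests were chosen with earlier results of these data known. Alternatives were DESeq2 1.42.0 (the test the authors used), its size factors, other count filters, the replicate block and leaving out libraries.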

Additional observations from a re-analysis of the deposited data

Results flagged for a closer look

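The highest or lowest library of each group of 6 was compared with the rest for every receptor gene, 36 groups in all, by its gap to the nearest value relative to the whole range (Dixon's test), which by chance flags about 1 in 20 groups. Grm2 was flagged in Gnb5+/+ cerebellum replicate 2, at 26.7 CPM beside 19.5 to 21.9 in the others. Grm8 was flagged in the same library, at 10.7 CPM beside 6.70 to 7.92. In Gnb5-/- cerebellum replicate 2 (mouse 12), Grm3 was flagged low at 10.4 CPM beside 17.7 to 20.7, and Grm7 low at 12.6 CPM beside 25.4 to 30.5. The latter library is the one whose profile stood apart in the report.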

How the results depend on the processing

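The count of receptor genes called was the same or within 1.5 times under all 136 alternatives run on it, and no receptor gene was called between genotypes under any of them. Signs of uncalled differences did turn. Between genotypes in cerebellum, leaving out 1 library gave log2 fold changes of -0.083 to 0.11 for Grm2, -0.17 to 0.048 for Grm4, -0.20 to 0.00042 for Grm7 and -0.031 to 0.21 for Grm8, with the highest values of Grm4 and Grm7 without mouse 12. In cortex Grm8 lay between -0.047 and 0.030, and without mice 14 and 3 Grm5 was at 0.056 and Grm8 at 0.014. For the differences of the genotype effect, leaving out Gnb5-/- replicate 2 or 3 in turn gave ranges of -0.11 to 0.37, -0.10 to 0.41 and -0.12 to 0.22 for Grm3, Grm4 and Grm7 (cerebellum minus cortex), -0.11 to 0.060 for Grm2 there, -0.053 to 0.18 for Grm4 (cerebellum minus hippocampus), and -0.028 to 0.068 and -0.048 to 0.23 for Grm2 and Grm4 (hippocampus minus cortex). Without mice 12 and 14, an alternative chosen after seeing the data like that without mice 14 and 3, Grm2 was at 0.042 and 0.013 against cortex and hippocampus, and Grm4 at -0.0017 (hippocampus minus cortex). The cause was not tested.

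Replicate numbers did not pair the genotypes: r of same-numbered deviations was -0.204 to 0.0672 in 18 pairs, and 1 of 18 matched best with its own number. With the replicate block 0 receptor genes were called, Grm2 in cerebellum was at -0.0028 and Grm8 in cortex at 0.00475, and the calls among all genes fell to 5, 19 and 6 in cerebellum, hippocampus and cortex. Without the mouse block, region and interaction counts of receptor genes were unchanged. DESeq2 called 49, 104 and 25 genes between genotypes, and 20 and 9 genes in the interactions of cerebellum with cortex and hippocampus, where edgeR called 2 and 5. For the former, edgeR called 4 genes without the mouse block or without Gnb5-/- replicate 3, and without mice 12 and 14 it called 5, and 3 for hippocampus minus cortex. A minimum of 10 counts in every library gave 6 calls in cortex. Leaving out 1 library gave 9 to 62 calls in cerebellum (62 without mouse 12, 30 without Gnb5+/+ replicate 1) and 8 to 22 in cortex (22 without mouse 14, 20 without Gnb5+/+ replicate 1, and 26 without mice 14 and 3).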
